A study of Homo sapiens with 24 samples.

Results

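The gene expression program of HEK293T cells that overexpressed the splicing factor SF3B2 was compared with that of cells given a scramble control plasmid, using 6 of the 24 RNA-seq libraries of the series, 3 for each plasmid. HEK293T is a human embryonic kidney line that carries the SV40 large T antigen. Both groups were transfected with Lipofectamine and collected at 48 h. The SF3B2 group received a pcDNA backbone that carries a DYK-tagged SF3B2 open reading frame, and the scramble group a plasmid in which a U6 promoter drives a scrambled form of the small noncoding RNA snaR-A. The groups therefore differed in the promoter and backbone of the plasmid and in the making of a foreign protein as well as in SF3B2, and these cannot be told apart in this comparison. HEK293T cells given eGFP, a green fluorescent protein, from the same backbone as SF3B2 were used beside it, and the remaining libraries were snaR-A in HEK293T and the same 4 plasmids in A549 lung carcinoma cells.

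SF3B2 is a large subunit of SF3B, which with SF3A joins the U2 snRNA to form the U2 small nuclear ribonucleoprotein (snRNP). U2 snRNP recognizes the branch point near the 3′ end of an intron, and SF3B holds the paired branch site in place while the rest of the spliceosome assembles. Almost every spliced human transcript passes through this step, and many splicing factors control the processing of their own mRNAs.

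The 6 libraries held between 200013048 and 259704262 estimated counts, so that 3 counts, the most that a listed 0 allows, corresponded to between 0.0116 and 0.0150 CPM (counts scaled to a library total of 1000000); intervals and floors of this kind cover counting error only. Levels below are CPM scaled by the trimmed mean of M-values (TMM) over the 12 HEK293T libraries, given in the order of replicates 1, 2 and 3. A gene was called at a Benjamini-Hochberg adjusted p under 0.05 in edgeR's quasi-likelihood test, and was past the threshold if its log2 fold change was also beyond 1 in either direction. The labels name the libraries as replicates, and the methods describe them as biological replicates processed on the same day.

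The cell identity of the libraries was checked first. The 12 HEK293T marker genes were all tested and summed to 1018, 925 and 821 CPM in the SF3B2 libraries and 1196, 1196 and 1128 CPM in scramble. Of 12 A549 markers, 5 were expressed enough to be tested, and their sum was 7.39, 7.32 and 23.0 CPM in SF3B2 and 8.67, 9.39 and 8.96 CPM in scramble. SF3B2 replicate 3 therefore stood above the other 5 libraries in these markers, of which ALDH1A1, an aldehyde dehydrogenase, was the most abundant at 14.5 CPM in that library, while the defining marker SERPINA1 was near 0 there at 0.00418 CPM. In eGFP the same sum was 4.89, 4.58 and 735 CPM, so that eGFP replicate 3 carried far more of it. For scale, all 12 markers summed to between 13964 and 16765 CPM, without TMM scaling, in the A549 libraries of the series. Counts of genes past the threshold and medians of lists set beside eGFP are given below also without SF3B2 replicate 3 or eGFP replicate 3. List counts that moved by over 1.5 times without SF3B2 replicate 3 are given too.

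SF3B2 itself was expressed at 43982, 34026 and 28092 CPM in the SF3B2 libraries and at 434, 422 and 407 CPM in scramble. Its level was far above every control library and was also graded, with replicate 1 highest and replicate 3 lowest. The mean was 35367 ± 8029 CPM (SD, n = 3) against 421 ± 13.7 CPM (SD, n = 3), a log2 fold change of 6.41 ± 0.23 (SE) with an adjusted p of 9.19e-05. By library, the rise over the scramble mean was 104-fold, 80.8-fold and 66.7-fold, so the highest SF3B2 library held 1.57 times the level of the lowest. An exact two-sided permutation test of SF3B2 over the 6 libraries gave p = 0.1, the smallest that 3 libraries against 3 allow. Transcripts of SF3B2 took 3.86%, 3.19% and 2.78% of all counts in the 3 libraries. The gene lies on chromosome 11 (chr11:66050729-66069308, hg38, GENCODE 44), and reads of the plasmid and of the chromosomal gene cannot be told apart in a count per gene.

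**Figure D1:**
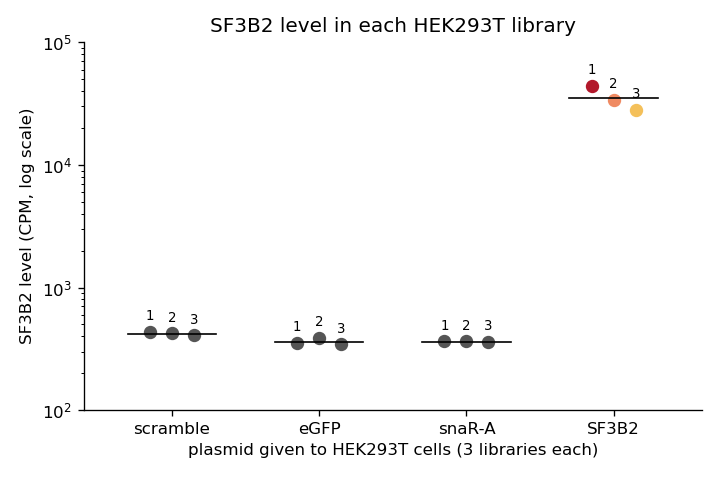
SF3B2 level (CPM, log axis) in each of the 12 HEK293T libraries by plasmid, with replicate numbers beside the points and the group mean as a line. The 3 SF3B2 libraries sit between 28092 and 43982 CPM in falling order from replicate 1 to replicate 3, and the scramble libraries between 407 and 434 CPM.

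Across the transcriptome, 1809 of 22593 genes tested (8.01%) were past the threshold, 1302 higher (5.76%) and 507 lower (2.24%) in SF3B2. Without the limit on fold change, 3790 genes rose (16.8%) and 3958 fell (17.5%), and for 11482 genes (50.8%) the 3 SF3B2 libraries did not overlap the 3 scramble libraries. The genes past the threshold were mostly of low level: 91.6% of the higher and 77.3% of the lower genes had a mean under 1 log2 CPM, against 41.4% of all genes tested, and 224 genes past the threshold lay above that level. Protein-coding genes made up 50.4% of the higher and 54.0% of the lower genes, against 69.0% of all genes tested. Long noncoding RNAs made up 29.3% and 30.97%, against 19.4%, and pseudogenes 12.1% and 6.11%, against 4.89%. Genes at least 100 times higher in A549 than in HEK293T scramble cells were 41 of the 1301 higher genes other than SF3B2 (3.15%) and 157 of all 22592 tested (0.695%). Without SF3B2 replicate 3, 1397 genes were higher and 734 lower past the threshold. Leaving out scramble replicate 1 left 337 lower genes.

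**Figure D2:**
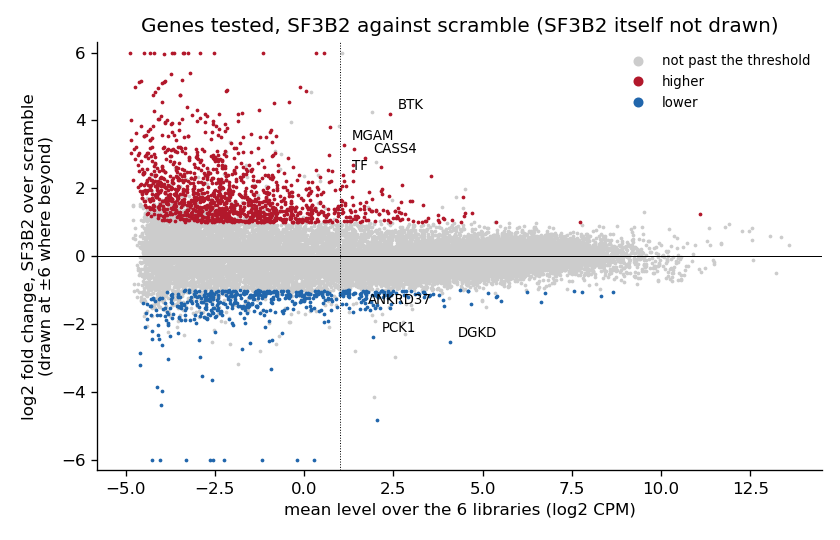
Log2 fold change of SF3B2 over scramble against the mean level (log2 CPM) of every gene tested other than SF3B2, with genes past the threshold in red (higher) and blue (lower) and the dotted line at 1 log2 CPM. Most colored points lie left of that line, and BTK and DGKD are the named points farthest from 0 on each side.

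Among named genes above 1 log2 CPM whose groups did not overlap, the largest rise after SF3B2 was in BTK, a tyrosine kinase of B cell receptor signaling, at 13.4, 8.65 and 9.16 CPM in SF3B2 and 0.478, 0.666 and 0.5998 CPM in scramble (log2 fold change 4.18 ± 0.23, adjusted p = 0.000503). The SF3B2 libraries were all well above the scramble libraries. MGAM, an intestinal maltase-glucoamylase, was at 2.94, 4.36 and 4.93 against 0.641, 0.253 and 0.380 CPM (log2 fold change 3.28 ± 0.36, adjusted p = 0.00130). CASS4, a scaffold of focal adhesions, was at 5.82, 6.28 and 5.85 against 0.907, 0.547 and 1.00 CPM (log2 fold change 2.89 ± 0.22, adjusted p = 0.000672). The groups did not overlap in any of these 3 genes. DNAH17, an axonemal dynein heavy chain, TF, the iron carrier transferrin, POU2F2, a lymphoid octamer-binding factor, and PDZK1, a scaffold of membrane transporters, rose by log2 fold changes of 2.69, 2.40, 2.22 and 1.98. The pseudogene IRS3P rose by 3.17 on the log2 scale, and the readthrough SPECC1L-ADORA2A by 2.504. Of the 31-base words of SPECC1L-ADORA2A, 98.2% occur in another annotated gene, mostly SPECC1L, and of those of PDZK1 61.3%, so counts of both are uncertain. With the eGFP plasmid, BTK was at 1.86, 2.06 and 1.78 CPM, and SF3B2 exceeded eGFP in this gene (log2 fold change 2.44, adjusted p = 0.0217), a call that was lost without eGFP replicate 1, 2 or 3 or SF3B2 replicate 2 (adjusted p up to 0.163). The other rises also appeared with eGFP over the same scramble libraries, at log2 fold changes of 3.24 for MGAM, 3.73 for CASS4, 3.85 for DNAH17, 3.64 for IRS3P, 2.93 for TF, 2.44 for PDZK1, 1.48 for POU2F2 and 1.74 for SPECC1L-ADORA2A. For these genes SF3B2 was not called against eGFP, with differences of 0.018, -0.86, -1.18, -0.49, -0.54, -0.48, 0.72 and 0.74 in the same order and adjusted p of 0.0546 or more.

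Under the same conditions, the largest fall was in DGKD, diacylglycerol kinase delta, at 3.35, 3.56 and 8.60 CPM in SF3B2 and 32.7, 21.3 and 37.4 CPM in scramble (log2 fold change -2.54 ± 0.39, adjusted p = 0.00364). SF3B2 replicate 3 was the highest of its group and still below every scramble library. PCK1, the cytosolic PEP carboxykinase of gluconeogenesis, was at 1.21, 1.45 and 1.23 against 7.82, 6.87 and 5.65 CPM (log2 fold change -2.37 ± 0.16, adjusted p = 0.000583). JAK3, the kinase of the common gamma chain cytokine receptors, was at 2.49, 2.28 and 2.28 against 7.41, 6.23 and 6.74 CPM (log2 fold change -1.51 ± 0.11, adjusted p = 0.000583). In both, the 3 SF3B2 libraries lay close together below the scramble libraries. COL23A1, a transmembrane collagen, CHRD, the BMP antagonist chordin, and EMID1, an extracellular matrix protein, fell to log2 fold changes of -1.53, -1.53 and -1.55, as did C11orf96, LINC02609 and ZNF710-AS1 at -1.63, -1.57 and -1.53, and ANKRD37, an ankyrin repeat gene of the hypoxia response, at -1.56. With eGFP over scramble, DGKD was at -0.93, PCK1 at -3.22 and JAK3 at -1.61, and none of the 3 was called between SF3B2 and eGFP.

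Among the partners of SF3B2 in and around U2 snRNP, more genes rose than fell. Of 23 U2 snRNP genes, all tested, 9 rose at adjusted p under 0.05 with SF3B2 counted among them, 2 fell and 12 were not called, against 16.8% higher and 17.5% lower among all genes tested. The median log2 fold change was 0.25, against -0.0065 over all genes. Without SF3B2 replicate 1 the median of the list was 0.15, with 8 higher and 2 lower in that separate fit, to which the shares above do not apply. In the SF3B complex, SF3B4, which contacts RNA near the branch site, was at 113, 99.7 and 93.5 against 70.2, 69.2 and 68.1 CPM (log2 fold change 0.58 ± 0.076, adjusted p = 0.00219). With eGFP it was at 91.7, 103 and 92.0 CPM, also above scramble (log2 fold change 0.47), and SF3B2 did not differ from eGFP past the test (0.087, adjusted p = 0.559). SF3B1, the scaffold of the complex, was at 614, 643 and 729 against 621, 645 and 623 CPM, overlapping and not called (adjusted p = 0.437). SF3B3 and PHF5A were not called either, with log2 fold changes of 0.12 and -0.11. The small subunits SF3B5 and SF3B6 fell: SF3B5 was at 33.2, 39.5 and 50.01 against 61.5, 68.8 and 57.9 CPM (log2 fold change -0.60 ± 0.15, adjusted p = 0.0178), and SF3B6 fell to -0.29 on the log2 scale (adjusted p = 0.0159). With eGFP over scramble SF3B5 and SF3B6 fell too, to -0.25 and -0.43, and neither was called between SF3B2 and eGFP. In SF3A, SF3A3 rose by 0.42 on the log2 scale (adjusted p = 0.0241), and with eGFP over scramble it was not called (0.091, adjusted p = 0.213). SF3A1 was at 475, 220.3 and 241 against 203, 201 and 195 CPM, with replicate 1 far above the other SF3B2 libraries, and was not called (adjusted p = 0.0933; without that library 0.0286, at a log2 fold change of 0.24). SF3A2 was at 76.1, 80.5 and 74.4 against 82.5, 71.0 and 75.9 CPM (log2 fold change 0.029). SF3B5 lost its call without scramble 1 or 2 or SF3B2 2 (adjusted p up to 0.0706), SF3B6 without scramble 1 or 2 or SF3B2 2 (adjusted p up to 0.0644) and SF3A3 without scramble 1, 2 or 3 or SF3B2 2 (adjusted p up to 0.0869).

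Of the proteins that recruit U2 snRNP, U2AF2, which binds the polypyrimidine tract, rose from 206, 195 and 204 to 282, 250.3 and 242 CPM (log2 fold change 0.38 ± 0.074, adjusted p = 0.00821). Its partner U2AF1, which reads the 3′ splice site, rose by 0.26 (adjusted p = 0.0171), SF1, the branch point binding protein, by 0.31 (adjusted p = 0.0112), and SUGP1, a G-patch protein that works with SF3B1, by 0.57 (adjusted p = 0.00575), all on the log2 scale. With eGFP over scramble U2AF2, U2AF1, SF1 and SUGP1 rose too, by 0.18, 0.28, 0.27 and 0.47. None of them was called between SF3B2 and eGFP, where SUGP1 was at 0.075 (adjusted p = 0.656). The helicase DDX46 and the U2-associated U2SURP rose by 0.28 and 0.33 with adjusted p of 0.0420 and 0.0463. With eGFP over scramble neither DDX46 nor U2SURP was called. HTATSF1, RBM17, SNRPB2, SNRPA1, DHX15, CHERP and PUF60 were not called, with log2 fold changes between -0.14 and 0.30. U2AF1 lost its call without scramble 1 or 2 or SF3B2 2 (adjusted p up to 0.0770), SF1 without scramble 1 (adjusted p up to 0.0541), DDX46 without scramble 1, 2 or 3 or SF3B2 1 or 2 (adjusted p up to 0.132) and U2SURP without scramble 1, 2 or 3 or SF3B2 1 or 2 (adjusted p up to 0.155). With all libraries kept, scaling by library size alone ended the calls of U2AF1 (adjusted p = 0.0529) and DDX46 (0.0609), and testing without a low-count filter those of DDX46 (0.0678) and U2SURP (0.0626).

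SR proteins and hnRNP proteins rose more often than they fell. Among SR proteins and nuclear speckle components, 11 of 33 tested rose and none fell (median log2 fold change 0.20), against 16.8% higher and 17.5% lower among all genes tested. SON, a core scaffold of nuclear speckles, was at 904, 770.4 and 593 CPM in SF3B2 and 428, 423 and 465 CPM in scramble (log2 fold change 0.80 ± 0.15, adjusted p = 0.00633), and SRSF1, a general SR splicing activator, was at 779.8, 752 and 749.9 against 493, 459 and 537 CPM (log2 fold change 0.63 ± 0.078, adjusted p = 0.00182). The groups did not overlap in either gene, but SON differed more among the SF3B2 libraries than SRSF1 did. TRA2B and SRSF6, further SR-type regulators, rose by 0.60 and 0.60. Of SRSF1's 31-base words, 32.3% occur in another annotated gene. Among hnRNP proteins, 9 of 27 rose and 1 fell (median 0.16). HNRNPM was at 699.6, 557 and 509 against 317, 313 and 343 CPM (log2 fold change 0.88 ± 0.12, adjusted p = 0.00250), and PTBP2, the neuronal polypyrimidine tract binding protein, at 126, 113 and 102 against 65.9, 65.6 and 68.3 CPM (log2 fold change 0.79 ± 0.082, adjusted p = 0.00118). HNRNPU, a scaffold attachment factor, and SYNCRIP rose by 0.53 and 0.65.

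Of 32 tested components of the U1, U4/U6 and U5 snRNPs and the shared Sm and LSm rings, 7 rose and 4 fell (median log2 fold change 0.14), close to the 16.8% higher and 17.5% lower among all genes tested. SART1, a U4/U6.U5 tri-snRNP protein, was at 129, 89.2 and 72.9 against 64.6, 59.4 and 65.0 CPM (log2 fold change 0.64 ± 0.19, adjusted p = 0.0320), and the Sm protein SNRPD3 at 382, 314 and 209 against 188, 213 and 184 CPM (log2 fold change 0.65 ± 0.20, adjusted p = 0.0389), with replicate 3 inside the scramble range. The Sm protein SNRPD2 and the LSm protein LSM7 fell to -0.49 and -0.48. SART1 lost its call without scramble 1, 2 or 3 or SF3B2 2 (adjusted p up to 0.109), SNRPD3 without scramble 1, 2 or 3 or SF3B2 1 or 2 (adjusted p up to 0.122), SNRPD2 without scramble 1 or 2 or SF3B2 2 (adjusted p up to 0.0669) and LSM7 without scramble 1, 2 or 3 or SF3B2 1 or 2 (adjusted p up to 0.157). LSM7 also lost it with all libraries kept under library size alone, library size without SF3B2 and RLE scaling (adjusted p of 0.0634, 0.0805 and 0.0518). In the minor spliceosome, 3 of 11 rose, namely ZRSR2, which reads the 3′ splice site of minor introns (0.54), RBM48 (0.49) and the U11/U12 protein SNRNP48 (0.30). Among factors of nonsense-mediated decay and the exon junction complex, 10 of 21 rose and 1 fell (median 0.23), with SMG6, the endonuclease of the pathway, at 53.9, 53.3 and 53.2 against 34.5, 35.0 and 36.0 CPM (log2 fold change 0.62 ± 0.052, adjusted p = 0.000790). UPF2, RBM8A and MAGOHB, which are further members, rose by 0.55, 0.56 and 0.58. ZRSR2 lost its call without scramble 1, 2 or 3 (adjusted p up to 0.0781), RBM8A without scramble 1, 2 or 3 (adjusted p up to 0.0736) and MAGOHB without scramble 1 or 3 or SF3B2 2 (adjusted p up to 0.0710).

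Genes of glucose metabolism and the hypoxia response fell. Of 37 tested members, 28 fell and none rose, where 17.5% of all genes tested fell, and the median log2 fold change was -0.47. Library by library, the median difference from the scramble mean was -0.54, -0.50 and -0.38. ALDOC, a brain-type aldolase, was at 10.7, 8.06 and 7.92 CPM in SF3B2 and 21.3, 22.4 and 16.1 CPM in scramble (log2 fold change -1.14 ± 0.17, adjusted p = 0.00293). SLC2A3, the glucose transporter GLUT3, was at 26.4, 25.3 and 19.9 against 57.8, 49.9 and 47.0 CPM (log2 fold change -1.09 ± 0.12, adjusted p = 0.00140). PFKFB4, which sets the level of a glycolytic activator, was at 6.18, 7.12 and 7.31 against 15.9, 15.6 and 13.8 CPM (log2 fold change -1.12 ± 0.10, adjusted p = 0.000867). No SF3B2 library reached the lowest scramble library in these genes. ANKRD37 was at 1.70, 1.66 and 1.31 against 5.04, 4.92 and 3.96 CPM (log2 fold change -1.56 ± 0.16, adjusted p = 0.00110), BNIP3, a mitophagy receptor, at 65.3, 69.4 and 71.5 against 137, 139 and 119 CPM (log2 fold change -0.92, adjusted p = 0.000820), and PPFIA4, a liprin, at 12.1, 16.2 and 14.4 against 31.2, 25.2 and 30.5 CPM (log2 fold change -1.01, adjusted p = 0.00186). BNIP3 and PPFIA4 were named after their values were seen, because their promoters are shown next. With eGFP against the same scramble libraries, 33 members fell and 1 rose, with a median of -0.62, where 25.8% of all genes tested fell and 22.9% rose. Without eGFP replicate 3, 34 fell and 1 rose (median -0.63), against 24.7% and 21.8% of all genes.

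Hypoxia-inducible factor binds the letters ACGTG, the core of the hypoxia response element, and these letters were sought on both strands in the 250 bases before each RefSeq gene start (GRCh38.p14). They also form part of CACGTG, an E-box that other factors bind. Of 28 members that fell, 24 matched a promoter by symbol, and 12 of these held the letters, as did 16 of the 33 matched among all tested members (48.5%), 22.2% of the 13471 matched promoters of genes tested and 18.7% of all 27305 promoters of the table. The share among members that fell (50%) was close to that among all tested members, so it describes the list and not the change against scramble. A match is a description of the sequence and not a site. The 4 members with a match that fell furthest are shown, as the group's strongest examples, each as 30 bases on the gene's strand around the match nearest to the start, with the motif in capitals (CACGT where it lies on the other strand). The stretches are chr4:185396686-185396715, plus strand (ANKRD37), chr17:28576906-28576935, minus strand (ALDOC), chr1:203026361-203026390, plus strand (PPFIA4) and chr10:131982039-131982068, minus strand (BNIP3).
ANKRD37: cagtgtttgtgtACGTGcggccgtggcggg
ALDOC: ccccggaggagtCACGTagctctgcgacat
PPFIA4: ggcgctctcgtcACGTGcccggacccgagg
BNIP3: cgcacgcgccgcACGTGccacacgcacccc

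In PPFIA4 and BNIP3 the printed stretch holds the palindrome CACGTG, the E-box, at the match, and in ANKRD37 and ALDOC it does not. These motif copies begin 143, 28, 118 and 133 bases before the start of the respective gene, and none was found in the same window of PFKFB4, which fell about as far as ALDOC.

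Ribosomal protein transcripts also fell. Of 77 tested ribosomal protein genes, 58 fell and none rose, where 17.5% of all genes tested fell, with a median log2 fold change of -0.44 and library medians of -0.51, -0.52 and -0.38. Their summed level was 52386, 53495 and 54726 CPM in SF3B2 and 73133, 78275 and 66518 CPM in scramble, so that every SF3B2 library lay below every scramble library. RPLP0, a stalk protein, was at 790.2, 1048 and 1158 against 1688, 1824 and 1486 CPM (log2 fold change -0.72 ± 0.15, adjusted p = 0.0112), and RPS3A, a small subunit protein, at 1079, 1148 and 1337 against 1987, 2143 and 1737 CPM (log2 fold change -0.70 ± 0.12, adjusted p = 0.00555). RPL31 and RPS3 fell to -0.75 and -0.73. RPL31 lost its call without scramble 1 or 2 or SF3B2 2 (adjusted p up to 0.0599) and RPS3 without scramble 1 or 2 or SF3B2 2 (adjusted p up to 0.0587). Ribosomal protein genes have many processed pseudogenes, and 33.5% of the 31-base words of RPS3A occur in another annotated gene. With eGFP, 77 of 77 fell against the same scramble libraries (median -0.48), where 25.8% of all genes did, also without eGFP replicate 3 (median -0.50). Without SF3B2 replicate 3 the median with SF3B2 was -0.50.

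The respiratory chain is encoded by nuclear and by mitochondrial genes. Over all genes tested, 16.8% rose and 17.5% fell in the fit with all 6 libraries. Of 63 tested nuclear genes of oxidative phosphorylation, 27 fell and none rose (median log2 fold change -0.27), among them COX8A and COX7A2 of cytochrome oxidase at -0.66 and -0.58, and UQCRC1 and UQCR11 of complex III at -0.52 and -0.65. Of the 31-base words of COX8A, 31.5% occur in another annotated gene. UQCR11 lost its call without scramble 1, 2 or 3 or SF3B2 1 or 2 (adjusted p up to 0.152), and with all libraries kept under library size alone, library size without SF3B2 and RLE scaling (adjusted p up to 0.0712). Without SF3B2 replicate 3, 41 of the 63 fell (median -0.34). Of 13 transcripts encoded by the mitochondrial genome, 2 rose and none fell (median 0.79). MT-ND1 of complex I was at 4862, 2834 and 1824 CPM in SF3B2 and 1430.4, 944 and 1733 CPM in scramble (log2 fold change 1.23 ± 0.36, adjusted p = 0.0337), and MT-CYB of complex III at 7289, 5208 and 3426 against 2768, 1919.8 and 3654 CPM (log2 fold change 0.95 ± 0.31, adjusted p = 0.0483). The scramble libraries themselves spread widely in both, and replicate 3 of SF3B2 lay close to scramble. MT-ND1 lost its call without scramble 1, 2 or 3 or SF3B2 1 or 2 (adjusted p up to 0.115) and MT-CYB without scramble 1 or 2 or SF3B2 1 or 2 (adjusted p up to 0.146) or with library size alone (adjusted p = 0.0553). Without SF3B2 replicate 3, 12 of the 13 rose (median 1.06). The 16.8% and 17.5% do not apply to this count or to the 41 of 63 nuclear genes, which come from another fit. With 1 library left out, between 3892 and 8996 genes were called over all genes tested. Mitochondrial transcripts summed to 101930.0, 71987 and 44211 CPM in SF3B2 and 47220.4, 32248 and 56554 CPM in scramble, and the groups overlapped in that sum.

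Targets of p53 rose. Of 25 tested, 21 rose and none fell, where 16.8% of all genes tested rose (median log2 fold change 0.44, library medians 0.28, 0.49 and 0.45). MDM2, the ubiquitin ligase that p53 induces and that degrades it, was at 311, 301 and 272 CPM in SF3B2 and 141, 147 and 154 CPM in scramble (log2 fold change 1.02 ± 0.073, adjusted p = 0.000583). SPATA18, a regulator of mitochondrial quality, was at 16.8, 20.3 and 18.7 against 10.3, 10.9 and 9.74 CPM (log2 fold change 0.87 ± 0.093, adjusted p = 0.00128). The groups were far apart in both. PLK3, a stress kinase, and PHLDA3, an AKT inhibitor, rose by 0.85 and 0.74, the latter with the highest level in replicate 3 (10.4, 16.4 and 19.3 CPM). PHLDA3 lost its call without scramble 1, 2 or 3 or SF3B2 2 (adjusted p up to 0.0855), and with all libraries kept under library size alone or library size without SF3B2 (adjusted p of 0.0627 and 0.0504). HEK293T cells carry the large T antigen, which binds p53. With eGFP, 21 of 25 rose against the same scramble libraries (median 0.41), where 22.9% of all genes did, also without eGFP replicate 3 (median 0.43).

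Heat shock genes also rose, at 12 of 21 tested with 3 lower (median log2 fold change 0.40). DNAJA1, an HSP40 co-chaperone, was at 483, 424 and 427 against 242, 247 and 254 CPM (log2 fold change 0.86 ± 0.074, adjusted p = 0.000834), and HSPH1, a nucleotide exchange factor of HSP70, at 364, 356 and 342 against 209, 214 and 219 CPM (log2 fold change 0.74 ± 0.06, adjusted p = 0.000722). All SF3B2 libraries exceeded all scramble libraries in both. BAG3 and the constitutive chaperone HSPA8 rose by 0.63 and 0.60. Chaperones of the endoplasmic reticulum, with 4 of 25 higher and 5 lower (median -0.058), were close to the 16.8% and 17.5% over all genes tested. DNAJB11 and the sensor ATF6 rose by 0.44 and 0.40, and the sensor ERN1 and the chaperone HYOU1 fell to -0.43 and -0.32. Targets of ATF4, the factor of amino acid and integrated stress, were at 7 higher and 10 lower of 42, also not far from those shares: DDIT4, an mTORC1 inhibitor, was at 116, 121 and 113 against 232, 249 and 204 CPM (log2 fold change -0.95 ± 0.085, adjusted p = 0.000867), ASNS, asparagine synthetase, and MTHFD2, of mitochondrial folate metabolism, fell to -0.63 and -0.49, and SLC7A11, the cystine transporter, rose by 0.60. The ATF4 list had 2 higher and 4 lower without scramble 1, 3 and 5 without scramble 2, and 2 and 8 without scramble 3. Over all genes, 3892 were called without scramble 1 and 4908 without scramble 2. Of the 31-base words of ASNS, 48.4% occur in another annotated gene. ATF6 lost its call without scramble 1, 2 or 3 (adjusted p up to 0.0801) and HYOU1 without scramble 1 or 2 or SF3B2 2 (adjusted p up to 0.0836).

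Genes of sterol synthesis fell, at 13 of 27 tested with 1 higher (median log2 fold change -0.27), against 17.5% lower and 16.8% higher among all genes tested. INSIG1, which retains the sterol sensor in the endoplasmic reticulum, was at 266, 282 and 274 against 604, 594 and 538 CPM (log2 fold change -1.06 ± 0.074, adjusted p = 0.000583). IDI1, an isomerase of the mevalonate pathway, was at 218, 231 and 206 against 394, 409 and 369.9 CPM (log2 fold change -0.82 ± 0.074, adjusted p = 0.000867). The groups did not overlap in either. MSMO1, a sterol C4 demethylase, and SQLE, squalene epoxidase, fell to -0.80 and -0.61. The letters TCACNCCAC, a form of the sterol regulatory element, were sought in the same windows and on both strands as the hypoxia letters. They were found in 1 of 10 matched members that fell, SREBF2, and not in INSIG1, IDI1 or MSMO1, in 1 of 20 matched among all tested members (5%), in 0.898% of the matched promoters of genes tested and in 0.875% of all promoters of the table. Immediate early and growth factor response genes were at 5 higher, near the share over all genes, and 10 lower of 34: MYC was at 87.3, 89.8 and 84.4 against 159, 164 and 151 CPM (log2 fold change -0.84 ± 0.059, adjusted p = 0.000583), BTG1, an antiproliferative gene, fell to -0.68, and EGR1 and FOSB rose by 0.91 and 0.95.

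Genes of the cell cycle were tested in lists of replication and mitosis. Of 37 replication genes, 3 rose, namely POLA1, the primase-associated polymerase (0.53), MCM10 (0.49) and UHRF1 (0.42), and 1 fell, the clamp loader subunit RFC4 (-0.30). Of 35 mitosis genes, 6 rose and 6 fell, with the kinetochore proteins CENPE at 0.49 and CENPF at 0.37, MKI67 at 0.46 and the kinase AURKB at -0.34. CENPE lost its call without scramble 1, 2 or 3 or SF3B2 2 (adjusted p up to 0.0983), CENPF without scramble 1 or 2 (adjusted p up to 0.0620), MKI67 without scramble 1 or 2 or SF3B2 2 (adjusted p up to 0.101) and AURKB without scramble 1 or SF3B2 2 (adjusted p up to 0.0568). Interferon response genes, at 6 higher and 6 lower of 38, and the mitosis genes were close to the 16.8% and 17.5% over all genes tested. The RNA sensor RIGI rose by 0.85, and IFITM1, DDX60 and IFI44L, all interferon-induced, fell to -0.96, -0.69 and -0.64. Of the 31-base words, 45.7% of those of RIGI and 37.8% of those of IFITM1 occur in another annotated gene. RIGI lost its call without scramble 1, 2 or 3 (adjusted p up to 0.0987), or with all 12 HEK293T libraries in 1 fit (adjusted p = 0.0599), and IFI44L without scramble 2 or SF3B2 1 or 2 (adjusted p up to 0.0741). Of 23 genes of epithelial and mesenchymal state, 3 rose and 9 fell, with the collagen COL3A1 (-0.85), the matrix protein SPARC (-0.79) and E-cadherin, CDH1 (-0.83), lower and the tight junction protein TJP1 higher (0.60).

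Lists of noncoding and multicopy genes gave further values. Counts for SF3B2 from all 6 libraries are to be read against the 16.8% higher and 17.5% lower among all genes tested. Of 17 tested snoRNA host genes, 2 rose and 7 fell, with SNHG3 at 39.7, 39.6 and 43.9 against 70.2, 65.9 and 67.9 CPM (log2 fold change -0.71 ± 0.063, adjusted p = 0.000867), SNHG29 and SNHG7 at -0.59 and -0.65, and SNHG17 at 0.64. SNHG7 lost its call without scramble 1 or 3 or SF3B2 2 (adjusted p up to 0.0721) and SNHG17 without scramble 1 (adjusted p up to 0.0510). Some transcripts are described in the study as sensitive to snaR-A because their intron retention fell after snaR-A depletion. Counts per gene do not measure intron retention. Of 13 such transcripts, 1 rose and 7 fell in level (median log2 fold change -0.31). With eGFP over the same scramble libraries 1 rose and 9 fell (median -0.28), where 22.9% of all genes rose and 25.8% fell. Without replicate 3 of the respective group the medians were -0.34 with SF3B2 and -0.28 with eGFP. No member was called between SF3B2 and eGFP. The study chose that list with knowledge of its own data, so it is not independent evidence of a direction. PAN2, a poly(A) nuclease, was at 50.4, 48.7 and 49.0 against 87.2, 65.9 and 85.5 CPM (log2 fold change -0.67 ± 0.10, adjusted p = 0.00342), and TRABD, MCRIP2 and AP1G2, a gamma adaptin, fell to -0.45, -0.55 and -0.46. MCRIP2 lost its call without scramble 1 or 2 or SF3B2 2 (adjusted p up to 0.0774) and AP1G2 without scramble 1 or 3 or SF3B2 1, 2 or 3 (adjusted p up to 0.143). Among segmentally duplicated genes of chromosome 16, 13 of 25 rose (median 0.82), and 8 without scramble replicate 2 (median 0.72). The median without SF3B2 replicate 3 was 0.77. With eGFP over the same scramble libraries 20 of 24 rose (median 1.08), where 22.9% of all genes did. Without eGFP replicate 3, 19 of 25 rose (median 1.165), where 21.8% of all genes did. NPIPB6 was at 5.87, 5.77 and 6.18 against 2.05, 1.62 and 1.96 CPM (log2 fold change 1.68 ± 0.12, adjusted p = 0.000583), but 93.4% of its 31-base words occur in another gene, as do 76.8% for NPIPB11 (1.40), 86.5% for NPIPB4 (0.97) and 99.4% for SMG1P5 (1.07), so which copy changed is uncertain. NPIPB11 lost its call without scramble 1 or 2 (adjusted p up to 0.0584). Of 39 tested histone genes, 2 rose and 3 fell, and without SF3B2 replicate 3, 2 rose and 20 fell. H3C6 was at 6.66, 6.11 and 6.19 against 2.74, 2.43 and 2.97 CPM (log2 fold change 1.24 ± 0.11, adjusted p = 0.000867), H1-2 fell to -1.05, H2BC21 to -0.99 and H4C14 to -0.93. H4C14 lost its call without scramble 1, 2 or 3 (adjusted p up to 0.115), and 98.6% of its 31-base words occur in another gene, mostly H4C15, so which copy fell is uncertain. Of 12 HEK293T markers, 3 rose, among them EYA1 (0.54) and INA (0.41), and 2 fell, the neurofilaments NEFM (-0.96) and NEFL (-0.69). INA lost its call without scramble 1, 2 or 3 (adjusted p up to 0.0851). Of 5 tested A549 markers, 1 was higher, AKR1B10, at 0.277, 0.362 and 5.56 against 0.0327, 0.135 and 0.0439 CPM (log2 fold change 4.87, adjusted p = 0.0260), with replicate 3 far above the rest (without it, log2 fold change 2.17, adjusted p = 0.0198). The part of A549 RNA in other genes of that library was not tested. Other list counts that moved by over 1.5 times without that library were those of hnRNP proteins (14 rose, 1 fell), U1, U4/U6 and U5 components (10 and 8), nonsense-mediated decay (10 and 4), SR proteins and speckle components (14 and 2), replication (7 and 4), immediate early genes (8 and 12), chromosome 16 copies (12 and 1) and A549 markers (1 and 1). These counts and the histone counts without that library come from another fit, to which the 16.8% and 17.5% do not apply. With 1 library left out, between 3892 and 8996 genes were called over all genes tested. A change in a list was therefore not told apart from a general change in calls.

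**Figure D3:**
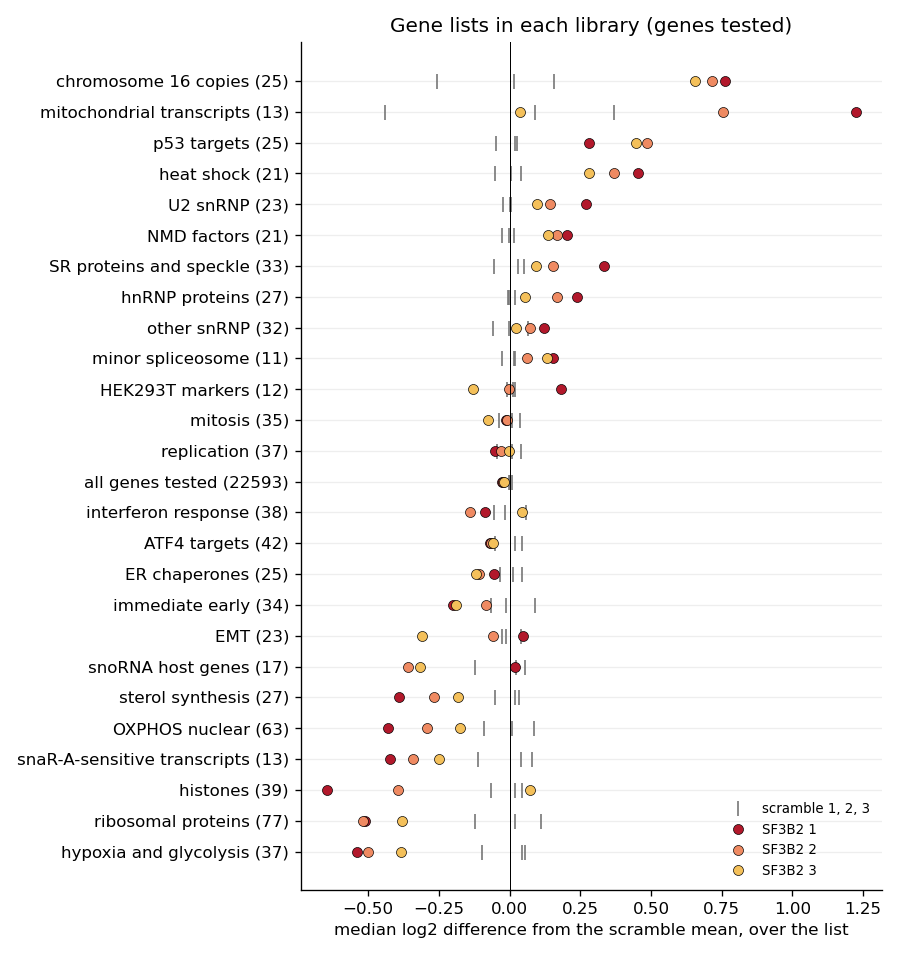
Median log2 difference from the scramble mean over the tested members of each gene list (number of members in parentheses), for SF3B2 replicates 1, 2 and 3 (circles) and the scramble libraries (gray ticks). Ribosomal protein and hypoxia and glycolysis genes lie left of every scramble library in all 3 SF3B2 libraries, while histones run from -0.65 in replicate 1 to 0.071 in replicate 3.

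The 3 SF3B2 libraries were then compared in the order of their SF3B2 level. On the first principal component of the 6 libraries, which held 52.9% of the variance, they lay at 69.8, 57.4 and 33.6 in that order, and the scramble libraries at -55.5, -59.9 and -45.4. Among genes other than SF3B2 that rose against scramble, 39.3% had their levels in the order 1, 2, 3 of SF3B2 and 14.8% in the reverse order, while among all genes tested the shares were 26.2% and 27.0%. Among genes that fell, 39.7% had the lowest level in replicate 1 and the highest in replicate 3, and 15.5% the reverse. Past the threshold, 25.8% of the higher genes had the order 1, 2, 3 and 16.1% the reverse, and of the lower genes 26.2% had the lowest level in replicate 1 and the highest in replicate 3 and 14.2% the reverse. The median rise was 0.60, 0.52 and 0.47 on the log2 scale in replicates 1, 2 and 3, and the median change of genes that fell was -0.56, -0.50 and -0.46. Past the threshold these medians were 0.99, 0.98 and 0.94, and -1.04, -0.98 and -0.89. With 3 libraries of 1 group, the SF3B2 level cannot be told apart from any other difference between them. The A549 marker sum, for example, was highest in replicate 3. The variance between replicates 1 and 3 was 463 times that of Poisson counts, while other HEK293T pairs of 1 group had 23.4 to 148 times. That variance was taken without TMM scaling and with SF3B2 included, so it also holds differences in composition and in SF3B2 itself.

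A slope on the log2 SF3B2 level, fitted within the SF3B2 libraries beside the group difference and with 3 residual degrees of freedom, was called for 1794 of 22592 genes (7.94%), 879 rising (3.89%) and 915 falling (4.05%) with SF3B2. Of 289 genes that were higher than scramble and had a called slope, 266 rose further with the SF3B2 level, and of 203 genes that were lower, 190 fell further. These were 7.63% of the higher and 5.13% of the lower genes. Most slopes, 1302, lay in genes not called against scramble (8.77% of them), where 600 rose and 702 fell with SF3B2. The count of slopes rested on the extreme libraries, and was 62 without SF3B2 replicate 1, 104 without SF3B2 replicate 3 and 465 without scramble replicate 1. No gene with a rising slope and 6 with a falling slope (0.656%) were among the genes at least 100 times higher in A549.

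Several splicing factors followed the gradient. In SNRPD3 the level went from 382 through 314 to 209 CPM with falling SF3B2 (slope 1.31 ± 0.24, adjusted p = 0.0227 per log2 unit of SF3B2). SART1 had a slope of 1.28 ± 0.13, adjusted p = 0.00675, and SON one of 0.92 ± 0.17, adjusted p = 0.0253. TRA2B, HNRNPM and SYNCRIP had slopes of 0.72, 0.72 and 0.73 with adjusted p of 0.0253, 0.0354 and 0.0252. In U2 snRNP, 3 members had a called rising slope and 1 a falling one. HTATSF1 (0.71 ± 0.15, adjusted p = 0.0341) and RBM17 (0.77 ± 0.15, adjusted p = 0.0256) had levels in the order of SF3B2, whereas the slope of SF3A1 (1.58 ± 0.35, adjusted p = 0.0386) rested on replicate 1 alone, with replicate 2 below replicate 3. The falling one was SF3B5 (-0.90 ± 0.20, adjusted p = 0.0372). SR proteins and speckle components had 8 rising slopes and 1 falling of 33, and hnRNP proteins 6 and 2 of 27, where 3.89% of all genes had rising and 4.05% falling slopes. Of the lists that fell against scramble, nuclear genes of oxidative phosphorylation had 8 falling and 1 rising slope of 63, sterol synthesis 4 falling and none rising of 27, and ribosomal protein genes 6 falling and 1 rising of 77, with RPL31 at -1.12 ± 0.18, adjusted p = 0.0171, whereas the hypoxia and glycolysis list had 2 rising and 1 falling of 37. Mitochondrial transcripts had 5 rising slopes of 13, and histones 7 falling of 39. The p53 targets, which rose against scramble, had 3 rising and 5 falling slopes of 25, among them PHLDA3 at -1.40 ± 0.20, adjusted p = 0.0127.

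The 5 largest slopes in each direction above 1 log2 CPM were of another kind. PSMB3, a proteasome subunit, was listed at 0 in SF3B2 replicates 1 and 2 and at 56.1 CPM in replicate 3, while scramble was at 48.8, 56.7 and 56.2 CPM. VPS52, PANK4 and LSM12P1 were likewise at 0 in replicates 1 and 2 and at 12.8, 7.51 and 6.53 CPM in replicate 3, and GCSHP5 was at 0, 2.26 and 11.2 CPM. RDM1, in the other direction, was at 1.26, 0 and 0 CPM. Jumps between a listed 0 and many counts within 1 group of HEK293T libraries occurred in 139 genes tested, and fitted slopes across such a jump are no measure of size. FAM3C2P had no 0 in SF3B2 or scramble and was at 15.5, 9.28 and 1.58 CPM in SF3B2. EEF1D, an elongation factor subunit, was at 70.8, 13.6 and 8.41 CPM in SF3B2 and 9.30, 8.46 and 10.1 CPM in scramble. Its rise was largest in replicate 1, while replicate 2 was above every scramble library and replicate 3 below them. ASDURF was at 8.54, 3.86 and 0.762 CPM, and MTATP6P1, a nuclear copy of mitochondrial sequence that shares 63.9% of its 31-base words with other genes, at 1849, 941 and 482 CPM. In FAM3C2P and LSM12P1 all 31-base words are shared with another gene, in GCSHP5 93.7% and in ASDURF 90.2%.

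**Figure D4:**
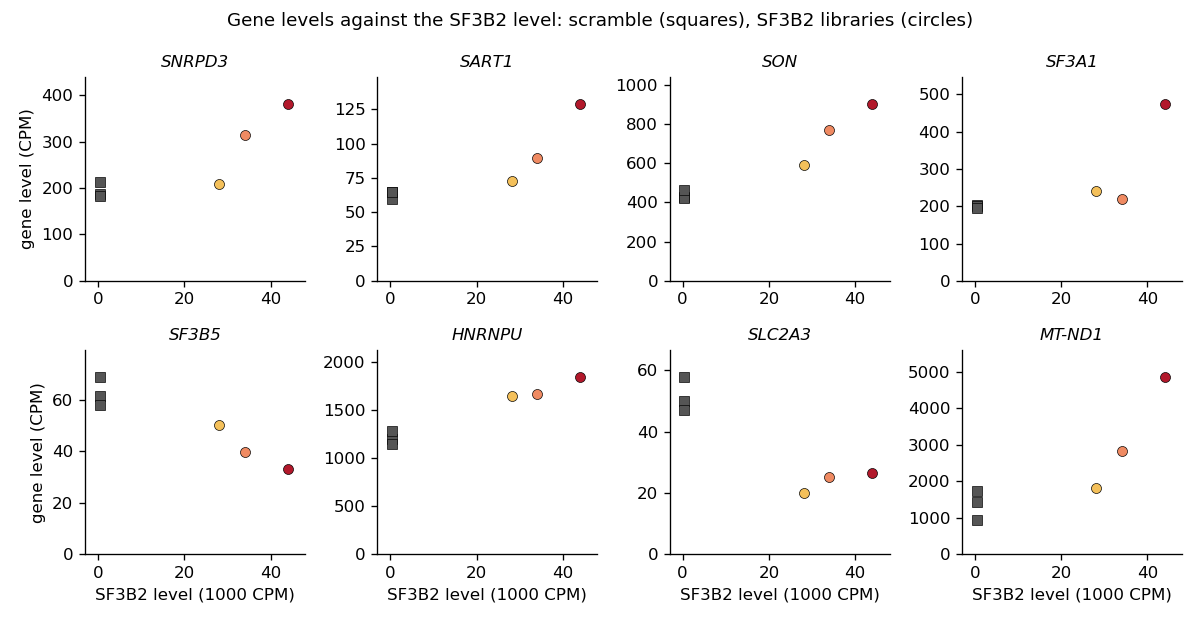
Level of 8 genes (CPM, axis from 0) against the SF3B2 level (units of 1000 CPM) in the scramble libraries (squares) and SF3B2 replicates 1 (red), 2 (orange) and 3 (yellow). SNRPD3, SART1, SON and MT-ND1 climb with SF3B2 among the circles and SF3B5 descends, SF3A1 is high in replicate 1 alone, and SLC2A3 is below scramble in every SF3B2 library.

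The direction of change also differed with gene structure. Protein-coding genes with a mean of at least 1 log2 CPM were divided into quintiles by properties from GENCODE 44. In the quintile with the lowest GC content of spliced exons, the median log2 fold change was 0.05, with 22.4% of 2379 genes higher and 14.8% lower. In the highest quintile it was -0.17, with 8.79% higher and 30.4% lower. The fall of the GC-rich quintile was -0.27, -0.21 and -0.079 in replicates 1, 2 and 3, in the order of their SF3B2 level. By spliced length, the shortest quintile had a median of -0.14 and the longest 0.040, and by exon number the quintile with the fewest exons had -0.11 and that with the most 0.020. The 216 single-exon genes among them had a median of -0.17. In eGFP against scramble, the medians of the lowest and highest GC quintiles were -0.071 and -0.11, and without eGFP replicate 3 they were -0.10 and -0.085, with scramble libraries shared between the comparisons. GC content can also affect the yield of sequencing libraries, and its part in these values was not tested.

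**Figure D5:**
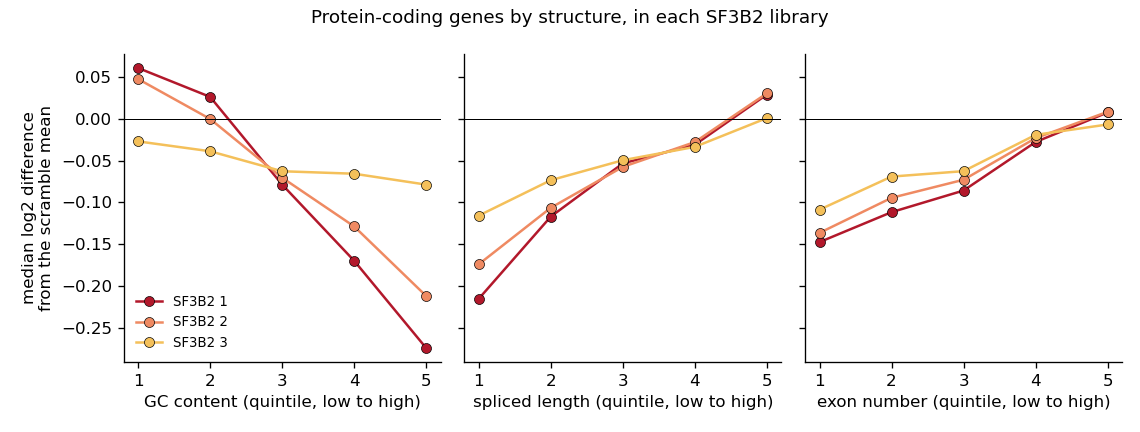
Median log2 difference from the scramble mean in quintiles of protein-coding genes by GC content, spliced length and exon number, for each SF3B2 replicate. The 3 lines fan out toward high GC, from -0.27 in replicate 1 to -0.079 in replicate 3, and lie closer together by exon number.

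Because eGFP was made from the same backbone, it was compared with SF3B2 to set the insert apart from the plasmid. Against scramble, eGFP had 2504 of 22613 genes past the threshold (11.1%), and 2721 without eGFP replicate 3. Against eGFP, SF3B2 had 30 of 22623 genes past the threshold (0.133%), 6 higher (0.0265%) and 24 lower (0.106%), and 39 at adjusted p under 0.05 (0.172%), while 4904 had an unadjusted p under 0.05 (21.7%). This count depended on the libraries: it was 335 without SF3B2 replicate 3, 13 without eGFP replicate 3, 280 without either of these, which hold the A549 markers, and 1, 2, 6 and 2 without eGFP replicate 1, eGFP replicate 2, SF3B2 replicate 1 and SF3B2 replicate 2. A small count here therefore does not show that SF3B2 and eGFP act alike. Beside SF3B2 (6.60, adjusted p = 0.000534) and BTK, the annotated genes higher in SF3B2 were the pseudogene HSP90B2P, the kidney integrin ITGA8, the noncoding RNA LINC02246, the inhibitor of differentiation ID2 and the protease ADAMTS1. ITGA8 differed from eGFP by 0.81 on the log2 scale (adjusted p = 0.0217) and from scramble by -0.19 (adjusted p = 0.0705). ADAMTS1 was below scramble in both, by -1.18 with SF3B2 and -1.93 with eGFP. Lower in SF3B2 than in eGFP was INHBE, an inhibin subunit of the stress response, at 2.87, 2.98 and 4.08 against 13.5, 16.1 and 12.1 CPM (log2 fold change -2.08, adjusted p = 0.0217), with scramble at 3.62, 3.16 and 3.24 CPM. The epidermal growth factor ligand BTC was at -1.55 (adjusted p = 0.0217), and the histones H3C6 and H2AC6 at -0.79 and -0.92. Past the threshold in SF3B2 was also ENSG00000285976, a protein-coding gene without a symbol, at 6.10, 6.49 and 4.90 CPM against 2.22, 2.41 and 2.74 CPM in eGFP (log2 fold change 1.24, adjusted p = 0.0461). The sixth was the Ensembl gene ENSG00000277641, which GENCODE 44 does not place, at 2.88, 3.28 and 2.94 CPM in SF3B2 and 0.0438, 0.0227 and 0.0793 CPM in eGFP and listed at 0 in every scramble library. Whether its counts include reads of the SF3B2 plasmid was not tested. Of the genes named here, SF3B2 alone kept its call against eGFP whichever library was left out. The others lost it without eGFP replicate 1 or SF3B2 replicate 2, and all but SF3B2 and ENSG00000277641 also without eGFP replicate 2. INHBE and LINC02246 lost it without SF3B2 replicate 1 too, and BTC, ITGA8, HSP90B2P, ENSG00000285976, ID2, ADAMTS1, H3C6 and H2AC6 without SF3B2 replicate 1 or eGFP replicate 3. ID2 also lost it under scaling by library size alone (log2 fold change 0.33, adjusted p = 0.0601). The adjusted p was up to 0.177 for INHBE and 0.163 for ENSG00000277641. These genes were named after their values were seen.

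Side by side, with the scramble libraries shared, the medians of the lists over scramble were -0.47 with SF3B2 and -0.62 with eGFP for hypoxia and glycolysis, -0.27 and -0.31 for nuclear oxidative phosphorylation, -0.27 and -0.27 for sterol synthesis, 0.44 and 0.41 for p53 targets, 0.40 and 0.10 for heat shock genes, 0.20 and 0.24 for SR proteins and speckle components, 0.16 and 0.027 for hnRNP proteins, 0.23 and 0.19 for nonsense-mediated decay and 0.25 and 0.035 for U2 snRNP. With eGFP, 9 heat shock genes were higher and 2 lower, 6 hnRNP genes higher and 5 lower, and 10 nonsense-mediated decay genes higher and 3 lower, where 22.9% of all genes were higher and 25.8% lower, and no member of these 3 lists was called between SF3B2 and eGFP. Over scramble, eGFP was at log2 fold changes of 0.69 for DNAJA1, 0.61 for HSPH1, 0.57 for BAG3, 0.77 for PTBP2 and 0.47 for HNRNPU. The U2 snRNP list had 6 members higher and 4 lower with eGFP, and its 1 member called between SF3B2 and eGFP was SF3B2 itself. Histones had -0.32 with SF3B2 and 0.62 with eGFP, and mitochondrial transcripts 0.79 and -0.026. Without replicate 3 of the respective group, histones had -0.71 and 0.86, mitochondrial transcripts 1.06 and -0.17, hypoxia and glycolysis -0.50 and -0.63, nuclear oxidative phosphorylation -0.34 and -0.28, sterol synthesis -0.33 and -0.26, p53 targets 0.41 and 0.43, heat shock genes 0.43 and 0.069, SR proteins and speckle components 0.25 and 0.22, hnRNP proteins 0.22 and -0.0025 and U2 snRNP 0.31 and 0.042. With the same libraries left out, nonsense-mediated decay had 0.26 with SF3B2 and 0.24 with eGFP. Among single genes, SRSF1 was at 767, 751 and 791 CPM with eGFP, SON at 538, 496 and 557 CPM, SNRPD3 at 156, 201 and 177 CPM, MDM2 at 240.0, 255 and 248 CPM and SLC2A3 at 13.4, 8.75 and 14.6 CPM. For SON the difference of SF3B2 from eGFP was 0.50, adjusted p = 0.156, for SNRPD3 0.75, adjusted p = 0.143, for HNRNPM 0.23, adjusted p = 0.301 and for SLC2A3 0.95, adjusted p = 0.104, none of which passed the test.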

How the data were processed

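Stranded libraries of poly(A) RNA, depleted of ribosomal RNA, were sequenced for 24 samples. The authors trimmed the reads with TrimGalore 0.6.5 and quantified them on the hg38 transcriptome with Salmon 1.5.2. The deposited table gives estimated counts for 60236 Ensembl genes, without normalization between libraries. The transcriptome release and the tool that summed transcripts to genes were not given in the sources used here. Counts that Salmon divides between similar transcripts are estimates, and 52.07% of the HEK293T values were not whole.

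Counts were rounded, and 0.03196% of values became 0. Genes passing filterByExpr were TMM scaled and tested with the quasi-likelihood F-test of edgeR 4.0.16 in R 4.3.3, on the 6 libraries compared, with Benjamini-Hochberg adjustment over all genes tested. Alternatives were edgeR's exact test, DESeq2 1.42.0, other scalings and count filters, all 12 HEK293T libraries in 1 fit, a replicate block and leaving out each library. Differences of single libraries were taken as log2(CPM + 0.1) minus the scramble mean. A slope on the log2 SF3B2 CPM, centred within the SF3B2 libraries, was fitted beside the group term. The group fit by quasi-likelihood test, exact test and DESeq2 and the slope fit were tested on simulated data, and the other settings were not. Gene structure came from GENCODE 44, which did not place 1397 tested genes, and shared 31-base words from its transcripts.

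Genes were named by rule: SF3B2 and the tested U2 snRNP members, the 10 largest changes past the threshold in each direction (symbol given, groups not overlapping, mean over the 6 libraries 1 log2 CPM or more), up to 4 called members of each of 26 lists by size of change and above that mean, and the 5 largest slopes in each direction above that mean. The members and lists were chosen with earlier results of these data known. The p-values measure the spread between replicates of 1 day.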

Additional observations from a re-analysis of the deposited data

How the results depend on the processing

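The count of genes at adjusted p under 0.05 between SF3B2 and scramble ran from 3892 to 8996 with 1 library left out, and from 6079 to 9931 over the other settings. The lowest counts came without scramble replicate 1 (3892), SF3B2 replicate 2 (4691) and scramble replicate 2 (4908). Genes past the threshold numbered 1298 to 2131 with 1 library left out, and 224 when only genes of at least 1 log2 CPM were counted, a limit chosen after the data were seen. With at least 10 counts in every library, 855 genes were higher past the threshold. The SF3B2 log2 fold change stayed between 6.24 and 6.55.

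Against eGFP, the 30 genes past the threshold became 270 with all 12 HEK293T libraries in 1 fit, 250 with edgeR's exact test, 73 with scaling by library size alone, 69 with at least 10 counts in every library, and 280 with SF3B2 replicate 3 and eGFP replicate 3 both left out, which was also chosen after the data were seen. With 1 library left out, the count ran from 1 to 335. The 1794 slopes on the SF3B2 level became 2875 with all 12 libraries, 3750 with library size alone and 62 to 2064 with 1 library left out.

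Replicate numbers are shared between groups. Residuals of SF3B2 and scramble libraries of the same number correlated at 0.053, 0.031 and -0.031, so the number was not taken as a pairing. With the replicate block, 6079 genes were at adjusted p under 0.05 and 1109 higher and 470 lower past the threshold, and 1 gene was past the threshold against eGFP. Named genes that lost their call under it were DDX46 (adjusted p = 0.0697), U2SURP (0.0764), LSM7 (0.0642), CENPE (0.0501), MKI67 (0.0617), MT-ND1 (0.0523), MT-CYB (0.0797) and ASDURF (0.149). Against eGFP, BTK had an adjusted p of 0.211 under it, INHBE 0.253 and ENSG00000277641 0.188. ASDURF also lost its call under library size alone (0.0531) and library size without SF3B2 (0.0513).

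List medians that moved beyond the spread between replicates lay close to 0 in part. With library size alone the median of all genes went from -0.0065 to -0.080, and those of the lists were 0.067 for other snRNP components, 0.012 for the minor spliceosome, 0.163 for nonsense-mediated decay, -0.119 for ATF4 targets, -0.132 for endoplasmic reticulum chaperones, 0.312 for heat shock, -0.144 for immediate early genes, -0.069 for replication, -0.063 for mitosis and 0.726 for the chromosome 16 copies. ATF4 targets also moved to -0.030 with DESeq2 and with RLE scaling, -0.060 with all 12 libraries, -0.023 with at least 10 counts, -0.057 with no filter and -0.072 with library size without SF3B2, and replication to -0.022 with the last. With 1 library left out, medians ran from 0.154 to 0.310 for U2 snRNP, 0.076 to 0.182 for the minor spliceosome, 0.222 to 0.271 for nonsense-mediated decay, -0.059 to -0.019 for ATF4 targets, -0.020 to 0.033 for replication, -0.706 to -0.159 for histones and 0.708 to 0.917 for the chromosome 16 copies. The histone median was -0.706 without SF3B2 replicate 3. Medians of replication and mitosis were thus positive or negative by setting. The interferon response median ran from -0.119 to 0.014, that of HEK293T markers from -0.037 to 0.151, with -0.018 under library size alone, and that of A549 markers from -0.170, without SF3B2 replicate 3, to 0.932.

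Uncalled U2 snRNP genes near 0 changed sign. With library size alone, SF3A2 was at -0.046 and DHX15 at -0.042. With 1 library left out, SF3A2 ran from -0.017 to 0.085, PHF5A from -0.171 to 0.002434, DHX15 from -0.034 to 0.087, CHERP from -0.0027 to 0.119 and PUF60 from -0.106 to 0.051. No other sign changed among the 144 named genes. The cause was not tested in any of these cases. Depth set a floor of 0.0116 to 0.0150 CPM. The variance between replicates of a HEK293T group, without TMM scaling and with SF3B2 included, was 23.4 to 463 times that of Poisson counts.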
